A study of Homo sapiens with 4 samples.

Results

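The STAT transcription factors STAT2, STAT3, STAT4, STAT5A, STAT5B and STAT6 were followed in NK-92 cells with and without a knockdown of ADAR1. These 6 genes were chosen by family name, by a rule that uses no measured value although earlier results of these data were known, and are 6 of the 20323 genes of the deposited table. All 6 passed the filter on low counts and are among the 11810 genes tested. NK-92 is an established human natural killer (NK) cell line that depends on IL-2, which its medium contained in both groups. The cells carried a lentiviral short hairpin RNA, either a scrambled sequence (shscramble, here NK scramble cells, 2 libraries) or a hairpin against ADAR1 (shADAR1, here NK shADAR1 cells, 2 libraries). ADAR1, encoded by ADAR, converts adenosine to inosine in double-stranded RNA. Oligo(dT)-selected mRNA was sequenced, and each library held between 37881704 and 39960491 estimated counts. The sample titles end in 1 and 2, which were read as replicate numbers. The same endings also name hairpins in the study, which gives the second hairpin for the sequenced cells.

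STAT proteins carry the signal of cytokine receptors to the nucleus. A cytokine brings its receptor subunits together, the attached Janus kinases phosphorylate the receptor and then a STAT, and the phosphorylated STAT pairs through its SH2 domain, enters the nucleus and binds DNA. In NK cells, IL-2 and IL-15 act mainly through the STAT5 proteins, IL-12 through STAT4, and type I interferon through a complex that contains STAT2 and IRF9. These steps run by phosphorylation, so the amount of a STAT mRNA is the supply of the protein's message and not its activity.

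The 6 genes lie on 3 chromosomes, as GENCODE 29 places their Ensembl identifiers on GRCh38. The build behind the deposited counts is not given in the sources used here. STAT4 is at chr2:191029576-191151596 on the minus strand. STAT2, at chr12:56341597-56360155, and STAT6, at chr12:57095408-57132139, both run on the minus strand with 735252 bases between them. STAT5B (chr17:42199168-42276707, minus), STAT5A (chr17:42287547-42311943, plus) and STAT3 (chr17:42313324-42388568, minus) are next to one another, with 10839 bases between STAT5B and STAT5A and 1380 bases between STAT5A and STAT3. Exons of STAT6 share 69 bases with NAB2 and 59 with LRP1 on the opposite strand, and those of STAT4 share 109 bases with the opposite-strand transcript AC067945.3. Whether the reads were counted by strand is not stated, so reads from these stretches cannot be assigned with certainty.

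STAT5A and STAT5B are so alike that their sequences bear on how their reads were counted. Their coding sequences were identical at 86.9% of aligned positions, against 41.3% to 56.1% for the other pairs of the 6 genes. The longest run common to their transcripts STAT5A-201 and STAT5B-201 was 429 bases, from base 564 to base 992 of both coding sequences. Its first 150 bases are shown because a read from within them fits both genes:
STAT5A and STAT5B: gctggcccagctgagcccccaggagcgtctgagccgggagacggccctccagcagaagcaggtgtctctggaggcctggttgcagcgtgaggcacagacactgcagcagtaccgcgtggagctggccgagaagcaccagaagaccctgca
The aligned stretch of 60 bases with the most differences covers bases 109 to 168 of both coding sequences and is shown with its 21 differing bases in capitals:
STAT5A: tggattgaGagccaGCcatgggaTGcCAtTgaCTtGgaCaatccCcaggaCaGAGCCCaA
STAT5B: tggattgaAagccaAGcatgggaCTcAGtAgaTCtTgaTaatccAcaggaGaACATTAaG
Of the 4202 windows of 100 bases in STAT5A-201, 371 (8.83%) also occurred in any transcript of STAT5B. Of those in STAT5B-201, 371 (7.41%) also occurred in any transcript of STAT5A. No other pair of the 6 genes shared a window of 50 bases. In the deposited table STAT5A and STAT5B had estimated counts that were not whole numbers, as had 24.3% of the tested genes, while the counts of STAT2, STAT3, STAT4 and STAT6 were whole in every library.

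The hairpin's target, whose knockdown the study reports by qRT-PCR and western blot, was examined first. ADAR mRNA was at 655 and 682 counts scaled to library size (CPM) in the NK scramble libraries and at 575 and 482 CPM in the NK shADAR1 libraries. In this and the following paragraphs, values joined by "against" are replicates 1 and 2 of NK scramble cells and then of NK shADAR1 cells. Both NK shADAR1 libraries were below both NK scramble libraries, with a log2 fold change of -0.34 ± 0.20 (SE, n = 2 per group). It did not pass edgeR's quasi-likelihood test (adjusted p = 1.00, unadjusted p = 0.127). No gene among the 11810 tested was called, by an adjusted p under 0.05 and a change of 1.5-fold or more (0.00%). Without adjustment, 293 genes (2.48%) had a p under 0.05 in edgeR and 289 in DESeq2, which also called 0 genes after adjustment. The study itself reports differentially expressed genes from its RNA sequencing, with DESeq2 and the same 2 limits. The reason for this difference was not tested. Between libraries, the correlation of log2 CPM over genes was 0.981 within each group and 0.981 to 0.989 across groups. Libraries of one group were thus no more alike than libraries of different groups. The highest values joined libraries of the same number across groups, 0.985 for replicate 1 and 0.989 for replicate 2. Of 14 NK cell markers, such as NKG7, all were tested and 0 had an unadjusted p under 0.05. The T cell receptor component CD3E was at 533 to 778 CPM and TRAC at 101 to 140 CPM, whereas CD3D was at 0.25 to 0.61 CPM. CD3G, CD4 and CD8A, also on the T cell list, did not pass the filter on low counts. The T cell list summed to 634 and 798 CPM in NK scramble cells and to 714 and 919 CPM in NK shADAR1 cells. The B cell and myeloid lists each summed to at most 2.47 CPM in any library.

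All 6 STAT genes were expressed in every library, and none passed the test between NK scramble and NK shADAR1 cells. The libraries are bulk RNA, in which fewer cells expressing a gene and less of its RNA per cell cannot be told apart. Every adjusted p of edgeR's quasi-likelihood test was 1.00, and 0 of the 6 had an unadjusted p under 0.05, where 2.48% of all tested genes did. In 3 of the 6 genes the 2 groups did not overlap: STAT4 and STAT6 were higher in both NK shADAR1 libraries and STAT3 was lower in both. Among all tested genes, 13.3% did not overlap with NK shADAR1 higher and 12.6% with NK shADAR1 lower. With 2 libraries per group, an exact permutation test of a single gene cannot give a two-sided p below 0.333.

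**Figure D1:**
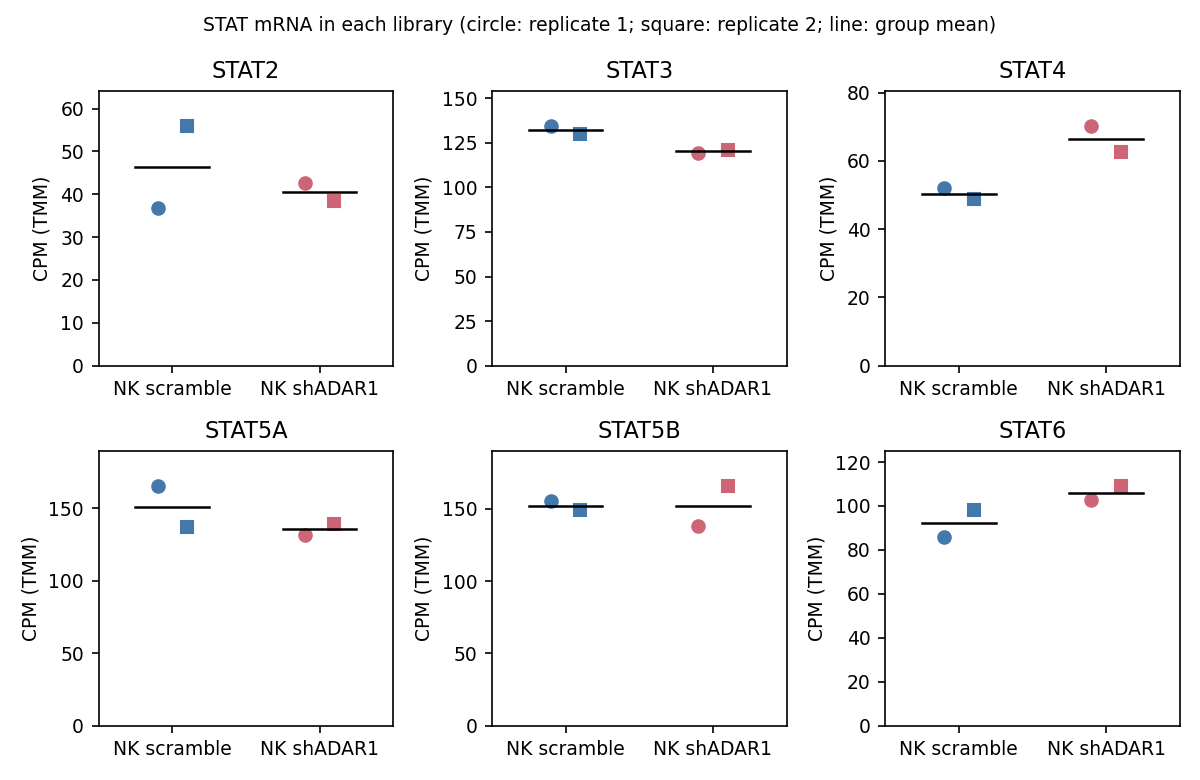
CPM after TMM scaling (vertical axes, each starting at 0) of the 6 STAT genes in the 2 NK scramble and 2 NK shADAR1 libraries, with circles for replicate 1, squares for replicate 2 and lines for group means. STAT4, at 52.1 and 48.8 against 70.1 and 62.6 CPM, had the widest separation between groups, while STAT2, STAT5A and STAT5B overlapped.

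STAT4 transmits the IL-12 signal toward IFNG expression in NK and T cells. It was measured at 52.1 and 48.8 CPM in NK scramble cells and at 70.1 and 62.6 CPM in NK shADAR1 cells. The lower NK shADAR1 library was above the higher NK scramble library. The group means were 50.4 ± 2.33 and 66.4 ± 5.31 CPM (SD, n = 2 each), a ratio of 1.32. On the log2 scale the fitted change was 0.40 ± 0.20 (SE), and its 95% confidence interval ran from -0.04 to 0.83. The change was larger in size than that of 86.4% of tested genes. It did not pass edgeR's test, with an unadjusted p of 0.0694 and an adjusted p of 1.00.

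STAT6 is the main STAT of IL-4 and IL-13 receptors. Its level was 86.0 and 98.2 CPM in NK scramble cells and 103 and 109 CPM in NK shADAR1 cells. Both NK shADAR1 libraries were higher, but the gap between the nearest libraries of the 2 groups was smaller than that between the NK scramble libraries. The log2 fold change was 0.20 ± 0.20 (SE, n = 2 per group) with a 95% confidence interval from -0.23 to 0.63 (edgeR, adjusted p = 1.00).

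STAT3, which serves IL-21, IL-10 and receptors that contain IL6ST, showed the smallest spread within groups. It stood at 134 and 130 CPM in NK scramble cells and at 120 and 121 CPM in NK shADAR1 cells. Both NK shADAR1 libraries were lower, and the replicates differed by 0.05 and 0.02 on the log2 CPM scale, against a median over tested genes of 0.26 in either group. The log2 fold change of -0.14 ± 0.19 (SE, n = 2 per group) had a 95% confidence interval from -0.55 to 0.28 (edgeR, adjusted p = 1.00). The separation was not seen in the deposited FPKM, where STAT3 was at 32.2 and 29.0 against 30.7 and 27.2 and the groups overlapped. FPKM divides by a transcript length as well as by depth, and the length implied by count and FPKM varied between libraries by 0.13 on the log2 scale for STAT3 and by 0.00 for STAT5B.

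STAT2, which acts in the interferon-stimulated gene factor with IRF9, was the least even between replicates. Its values were 36.7 and 55.8 CPM in NK scramble cells and 42.7 and 38.5 CPM in NK shADAR1 cells. Both NK shADAR1 libraries lay between the 2 NK scramble libraries. The NK scramble replicates differed by 0.61 on the log2 CPM scale, a gap larger than that of 85.1% of tested genes, while the NK shADAR1 replicates differed by 0.15. The log2 fold change was -0.19 ± 0.23 (SE, n = 2 per group), with a 95% confidence interval from -0.71 to 0.33 (edgeR, adjusted p = 1.00). STAT2 gave a log2 fold change of 0.14 when NK scramble replicate 2 was left out and of -0.46 when NK scramble replicate 1 was.

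STAT5A and STAT5B, the STATs on which IL-2 signaling in NK cells relies, did not separate the groups. STAT5A was at 165 and 137 CPM in NK scramble cells and at 132 and 139 CPM in NK shADAR1 cells. STAT5B was at 155 and 149 CPM in NK scramble cells and at 138 and 166 CPM in NK shADAR1 cells. In both genes the groups overlapped. The log2 fold change was -0.16 ± 0.20 (SE) for STAT5A, with a 95% confidence interval from -0.59 to 0.28. For STAT5B it was -0.01 ± 0.20 (SE), from -0.44 to 0.43, and only 2.01% of tested genes had a smaller change in size. The adjusted p of edgeR was 1.00 for both. The sign for STAT5B turned under upper quartile scaling, where the log2 fold change was 0.0058, and no direction is given for it.

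Because some reads fit both genes, STAT5A and STAT5B were also summed as 1 feature, an alternative chosen after seeing the data. The sum was 320 and 286 CPM in NK scramble cells and 270 and 304 CPM in NK shADAR1 cells. The groups overlapped, and the log2 fold change of the sum was -0.08 ± 0.20 (SE, n = 2 per group). The ratio of STAT5A to STAT5B counts was 1.06 and 0.917 in NK scramble cells and 0.956 and 0.839 in NK shADAR1 cells, and these ratios overlapped too. The confidence interval of the summed change ran from -0.51 to 0.36, about as wide as that of either gene.

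**Figure D2:**
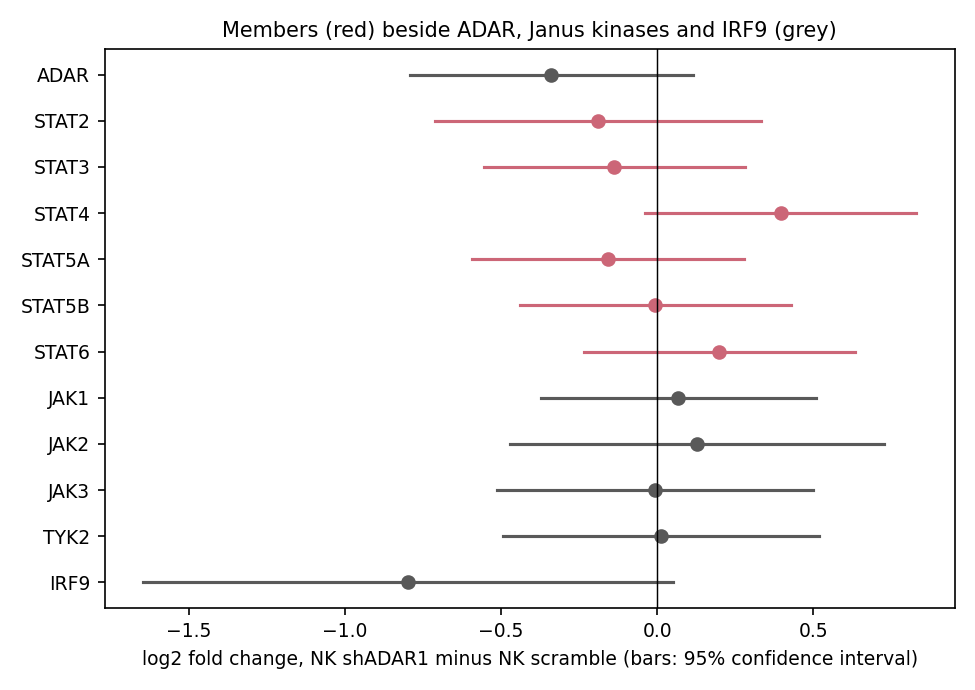
Log2 fold change (horizontal axis, NK shADAR1 minus NK scramble) with its 95% confidence interval from edgeR for the 6 STAT genes in red and for ADAR, the 4 Janus kinases and IRF9 in grey. All intervals include 0. The lower bound of STAT4, at -0.04, is the closest to 0 among the STAT genes.

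Levels can be compared between genes only per transcript length, so the deposited FPKM were used. STAT5A had the highest level of the 6 in 4 of 4 libraries, at 45.1 and 36.1 FPKM against 36.7 and 36.0 FPKM. STAT2 had the lowest in 4 of 4 libraries, at 9.22, 12.8, 11.1 and 8.99 FPKM in the same order. Between them STAT5B ranged over the libraries from 28.2 to 31.6 FPKM, STAT3 from 27.2 to 32.2, STAT6 from 25.1 to 31.3 and STAT4 from 19.2 to 29.1. By mean FPKM the order was STAT5A, STAT5B, STAT3, STAT6, STAT4 and STAT2. The ranges of STAT5B, STAT3 and STAT6 overlapped, so these neighbours did not differ beyond their spread. The range of STAT4 overlapped with that of STAT6 as well, although STAT6 was the higher of the pair in 4 of 4 libraries. The range of STAT5A stayed above that of STAT5B, and the range of STAT4 above that of STAT2, but the level of STAT5A against STAT5B depends on how shared reads were divided.

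The summed FPKM of the 6 genes was 164 and 153 in NK scramble cells and 166 and 160 in NK shADAR1 cells, with overlapping groups. Within that sum STAT4 took 13.0% and 12.5% in NK scramble cells and 17.4% and 15.7% in NK shADAR1 cells, the groups not overlapping. STAT6 took 15.3% and 17.8% and then 18.5% and 19.6%, again without overlap. STAT6 ranked 4 in both NK scramble libraries, and 2 and 3 in the NK shADAR1 libraries. STAT5A took 27.5% and 23.5% and then 22.1% and 22.5%. Its share was higher in both NK scramble libraries, although its CPM and its FPKM overlapped between groups. The shares divide one sum, so a rise in one lowers others and they are not separate observations.

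**Figure D3:**
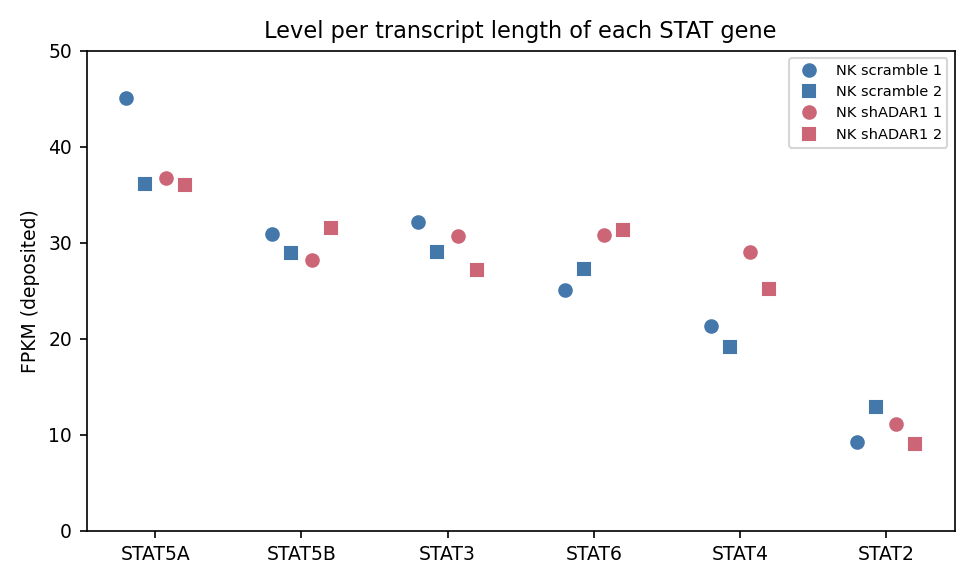
Deposited FPKM (vertical axis) of each STAT gene in the 4 libraries, with genes ordered by mean level, blue for NK scramble and red for NK shADAR1, circles for replicate 1 and squares for replicate 2. STAT5A is highest and STAT2 lowest in every library, and the ranges of STAT5B, STAT3 and STAT6 overlap.

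For the 2 STAT genes with the widest range of log2 CPM over the libraries, STAT2 (range 0.61) and STAT4 (range 0.52), the genes with the most similar pattern were sought among 9872 genes averaging 100 counts or more. Likeness was the root mean square difference of centred log2 CPM over the 4 libraries. The nearest to STAT2 were C18orf25 (0.020), SPTLC2 (0.027) and APBB2 (0.031), and 110 genes were within 0.1. The nearest to STAT4 were PTPN4 (0.020), TMEM67 (0.024) and KLRC2 (0.025), and 226 genes were within 0.1. With 4 libraries many genes have a pattern this close, and KLRC2 has near-identical relatives that can share its reads.

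Upstream of the STATs, none of the tested cytokine receptor subunits or Janus kinases passed the adjusted test of edgeR. Of 24 receptor subunits listed, 17 were tested, with 8 higher and 9 lower in NK shADAR1 cells and a median log2 fold change of -0.05, beside 0.00 over all tested genes. The most abundant, IL2RB, the signaling subunit shared by the IL-2 and IL-15 receptors, was at 1029 and 983 CPM against 1279 and 790 CPM, with overlapping groups. IL15RA, the private subunit of the IL-15 receptor, was the 1 receptor gene with an unadjusted p of edgeR under 0.05 (2.48% over all tested genes). It is named after its values were seen. It was at 45.1 and 28.5 CPM under the scrambled hairpin and at 24.7 and 24.4 CPM under shADAR1, lower in both NK shADAR1 libraries. Its log2 fold change was -0.58 ± 0.24 (SE, n = 2 per group; edgeR, unadjusted p = 0.0377, adjusted p = 1.00). Groups did not overlap in 1 of the 17 receptor genes with NK shADAR1 higher (13.3% over all tested genes) and in 5 with NK shADAR1 lower (12.6%).

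The Janus kinases phosphorylate the STATs, and 0 of the 4 separated the groups. JAK1, which serves the IL-2, IL-15 and interferon receptors, was at 330 and 371 CPM against 394 and 341 CPM. JAK3, the partner of the common gamma chain IL2RG, was at 136 and 136 CPM against 163 and 108 CPM. TYK2, used by the IL-12 and type I interferon receptors, was at 202 and 159 CPM against 213 and 151 CPM. JAK2 was at 6.96 and 5.85 CPM against 7.14 and 6.85 CPM, the lowest of the 4 in counts. The fitted log2 changes ran from -0.01 for JAK3 to 0.13 for JAK2.

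Among 11 partners of the STATs, 6 were higher and 5 lower, with a median log2 fold change of 0.05. IRF9, the DNA-binding partner of STAT2, was the 1 gene of these 11 whose groups did not overlap, where 12.6% of all tested genes were separated in that direction. It was at 47.6 and 41.7 CPM in NK scramble cells and at 38.1 and 13.3 CPM in NK shADAR1 cells, so the NK shADAR1 replicates were farther apart than the nearest libraries of the 2 groups. Its log2 fold change of -0.80 ± 0.38 (SE, n = 2 per group) had an unadjusted p of 0.0629 and an adjusted p of 1.00 in edgeR. IRF9 passed the adjusted test when NK shADAR1 replicate 1 was left out. The most abundant partner, the coactivator CREBBP, was at 194 and 179 CPM against 217 and 174 CPM.

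Of 20 inhibitors of the pathway 17 were tested, with 6 higher and 11 lower and a median log2 fold change of -0.03. With NK shADAR1 higher, 4 did not overlap (13.3% over all tested genes), and with NK shADAR1 lower, 3 (12.6%). CISH, an inhibitor that STAT5 itself induces, was at 203 and 151 CPM against 85.1 and 128 CPM, lower in both, with a log2 fold change of -0.73 ± 0.25 (SE). USP18, which blocks the type I interferon receptor, was at 37.5 and 39.3 CPM against 21.6 and 15.5 CPM, lower in both, with a log2 fold change of -1.05 ± 0.22 (SE). The phosphatases PTPN6 (16.2 and 26.2 against 31.3 and 35.5 CPM) and PTPRC (582 and 503 against 945 and 750 CPM) were higher in both NK shADAR1 libraries. Their log2 fold changes were 0.66 ± 0.25 and 0.64 ± 0.22 (SE, n = 2 per group). These 4 genes had unadjusted p-values from 0.000838 to 0.026 in edgeR, and the adjusted p of each was 1.00. Over all tested genes, 2.48% had an unadjusted p of edgeR under 0.05. Without NK scramble replicate 1, USP18 passed the adjusted test and was the 1 inhibitor to do so.

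Genes known as targets of STAT2 with IRF9 were lower in NK shADAR1 cells in every case, although STAT2 mRNA did not separate the groups. Of 25 such interferon-stimulated genes, 25 were lower and 20 of them did not overlap, against 12.6% of all tested genes on that side. The median log2 fold change was -0.90. An unadjusted p of edgeR under 0.05 was found for 11 (2.48% over all tested genes), and 0 passed the adjusted test with all libraries. Some of them passed it when replicate 1 of either group was left out, a fit that leaves a lone library in that group. The summed level of the list was 2626 and 2504 CPM in NK scramble cells and 1666 and 889 CPM in NK shADAR1 cells. Both NK shADAR1 libraries were lower. As a ratio, replicate 2 lay further below replicate 1 than replicate 1 lay below either NK scramble library. Without NK shADAR1 replicate 2, 22 of the 25 were lower and the median was -0.44. The median was -1.68 without NK shADAR1 replicate 1 and -0.78 without NK scramble replicate 1.

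The antiviral GTPase MX1 was at 565 and 519 CPM in NK scramble cells and at 293 and 60.8 CPM in NK shADAR1 cells. Its relative MX2 was at 2.70 and 3.05 CPM against 1.37 and 0.0536 CPM, the last of these resting on 2 counts. IFI44L was at 124 and 90.2 CPM against 52.5 and 6.13 CPM. In these genes both NK shADAR1 libraries were lower and replicate 2 was the lowest of the 4. IFI27 was at 97.8 and 83.1 CPM against 49.3 and 23.9 CPM, with the same order. IFIT1, which binds foreign RNA ends, was at 30.4 and 31.9 CPM against 18.5 and 6.91 CPM, a log2 fold change of -1.29 ± 0.37 (SE, n = 2 per group; edgeR, unadjusted p = 0.00541, adjusted p = 1.00). STAT2 itself was at 42.7 CPM in NK shADAR1 replicate 1 and at 38.5 CPM in replicate 2, both above the 36.7 CPM of NK scramble replicate 1.

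The letters that this complex is known to bind were looked for in the RefSeq promoter windows (GRCh38.p14, 250 bases before to 50 after the start), a search added after the values were seen. The motif GAAANNGAAA, an ISRE-like pattern read on both strands, occurred in 3.57% of 35114 windows of all genes and in 4.38% of 27303 genes with any window. Of the 25 listed STAT2 targets 19 had a window, and 14 of these (73.7%) held the motif. Among targets with a window on the other lists, 3 of 8 held it for STAT4 and 2 of 5 for STAT6. For STAT5 it was 1 of 13, and for STAT3 0 of 8. The stretches of IFIT1 and ISG15 are shown, with every base of a match in capitals, because they carry adjacent or overlapping matches:
IFIT1: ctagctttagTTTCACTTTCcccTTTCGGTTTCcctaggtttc
ISG15: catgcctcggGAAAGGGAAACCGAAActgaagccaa
The IFIT1 stretch is chr10:89392497-89392539 on the plus strand, and both its matches read on the opposite strand. The ISG15 stretch is chr1:1013374-1013409 on the plus strand, with 2 matches that share bases. ISG15, an interferon-induced ubiquitin-like protein, was at 95.9 and 114 CPM against 68.1 and 32.9 CPM, lower in both NK shADAR1 libraries.

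The 20 listed targets of STAT5 were mostly lower, by small amounts, while STAT5A and STAT5B overlapped between groups. Of 19 tested, 18 were lower and 9 did not overlap with NK shADAR1 lower (12.6% over all tested genes), with a median log2 fold change of -0.25. Leaving out one library at a time left 14 to 18 of the 19 lower. The fewest were 14 without NK shADAR1 replicate 2 and 15 without NK scramble replicate 2. None passed the adjusted test of edgeR with all libraries, and LTA did without NK scramble replicate 1. LTA, the cytokine lymphotoxin alpha, was at 78.9 and 59.4 CPM against 14.7 and 41.9 CPM. It was lower in both NK shADAR1 libraries, with a log2 fold change of -1.29 ± 0.39 (SE, n = 2 per group; edgeR, unadjusted p = 0.00787, adjusted p = 1.00). LTA and CISH were the 2 of the 19 tested targets of STAT5 with an unadjusted p of edgeR under 0.05 (2.48% over all tested genes). Granzyme B (GZMB), the most abundant gene of the list, was at 461 and 509 CPM against 508 and 456 CPM, with overlapping groups.

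The GAS motif TTCNNNGAA, a common STAT site, was found in 7.66% of all windows on either strand and in 9.38% of genes with any window. Of 13 STAT5 targets with a window, CISH and LTA held it (15.4%). The share was larger for the targets of STAT2, where 5 of 19 held it (26.3%). It was 2 of 8 for STAT4, 1 of 5 for STAT6 and 1 of 8 for STAT3. The CISH promoter is shown, with its 4 GAS matches in capitals, since CISH is in the lists of STAT5 targets, STAT6 targets and inhibitors:
CISH: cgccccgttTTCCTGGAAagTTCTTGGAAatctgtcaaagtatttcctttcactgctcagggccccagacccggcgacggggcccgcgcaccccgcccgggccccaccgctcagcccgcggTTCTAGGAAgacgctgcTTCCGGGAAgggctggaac
This stretch is chr3:50611868-50612024 on the minus strand. For the 6 STAT genes themselves, 9 windows were available, covering all 6, and 0 held either motif. A match is a description of letters and does not show binding, and its absence concerns only these windows.

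The lists of STAT4, STAT3 and STAT6 targets held fewer tested genes. Of 8 tested targets of STAT4, 8 were lower and 4 did not overlap (12.6% over all tested genes), with a median log2 fold change of -0.21, whereas STAT4 mRNA itself was higher in both NK shADAR1 libraries. IFNG, the interferon that IL-12 induces in NK cells, was at 32.3 and 60.0 CPM against 19.7 and 22.5 CPM. It was lower in both, with a log2 fold change of -1.13 ± 0.28 (SE, n = 2 per group; edgeR, unadjusted p = 0.00236, adjusted p = 1.00). IFNG passed the adjusted test without NK scramble replicate 1. Leaving out one library at a time left 6 to 8 of the 8 targets lower, with 6 lower without NK shADAR1 replicate 2. Perforin (PRF1), the most abundant target on the list, was at 403 and 422 CPM against 458 and 347 CPM and overlapped.

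Of 11 tested targets of STAT3, 4 were higher and 7 lower, with a median of -0.16. BCL6, a transcriptional repressor, was higher in both NK shADAR1 libraries (13.4 and 16.0 against 30.0 and 19.1 CPM). VEGFA, a secreted growth factor, was lower in both (2.28 and 1.30 against 0.763 and 0.803 CPM), but it rested on few estimated counts (91 and 51 against 30 and 30). The log2 fold changes were 0.74 ± 0.26 and -1.19 ± 0.50 (SE, n = 2 per group), and both genes had an adjusted p of 1.00 in edgeR. The kinase PIM1, the most abundant of the list, was at 454 and 433 CPM against 356 and 394 CPM, lower in both. Of 5 tested targets of STAT6, 1 was higher and 4 were lower, with a median of -0.17. Among them CISH was the 1 gene with an unadjusted p of edgeR under 0.05 (2.48% over all tested genes). The target lists share genes, such as CISH, PIM1 and PRF1, so their counts are not separate observations.

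**Figure D4:**
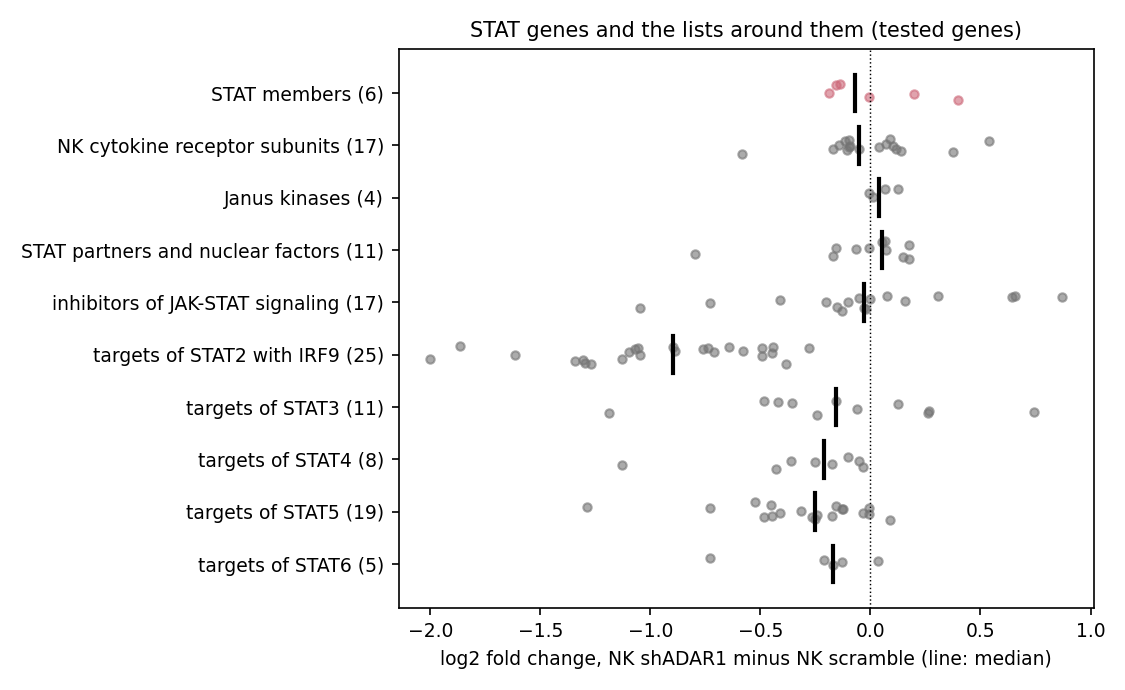
Log2 fold change (horizontal axis, NK shADAR1 minus NK scramble) of each tested gene, as points, for the 6 STAT genes in red and for 9 lists of the pathway in grey, with the number of tested genes in parentheses and a line at each median. The STAT genes lie between -0.19 and 0.40, and the targets of STAT2 with IRF9 all lie below 0, with a median of -0.90.

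By library, STAT2 and its listed targets did not follow one pattern. The median centred log2 CPM of the 25 targets was 0.52 and 0.50 in NK scramble cells, 0.12 in NK shADAR1 replicate 1 and -1.14 in NK shADAR1 replicate 2. Centred STAT2 was at -0.22, 0.38, -0.01 and -0.15 in the same libraries, so STAT2 was lowest in an NK scramble library and its targets in an NK shADAR1 library. For STAT4 the centred values were -0.15, -0.24, 0.28 and 0.12, and the median of its targets was 0.11, 0.11, 0.08 and -0.31. In STAT3 and in the median of its targets, the NK scramble libraries were above 0 and the NK shADAR1 libraries below. STAT6 ran the other way from the median of its targets, at -0.20, -0.01, 0.06 and 0.14 beside 0.10, 0.08, 0.02 and -0.10. The median of the STAT5 targets was 0.05, 0.16, -0.10 and -0.08. STAT5A was at 0.21, -0.06, -0.11 and -0.04, and STAT5B at 0.03, -0.02, -0.14 and 0.13.

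**Figure D5:**
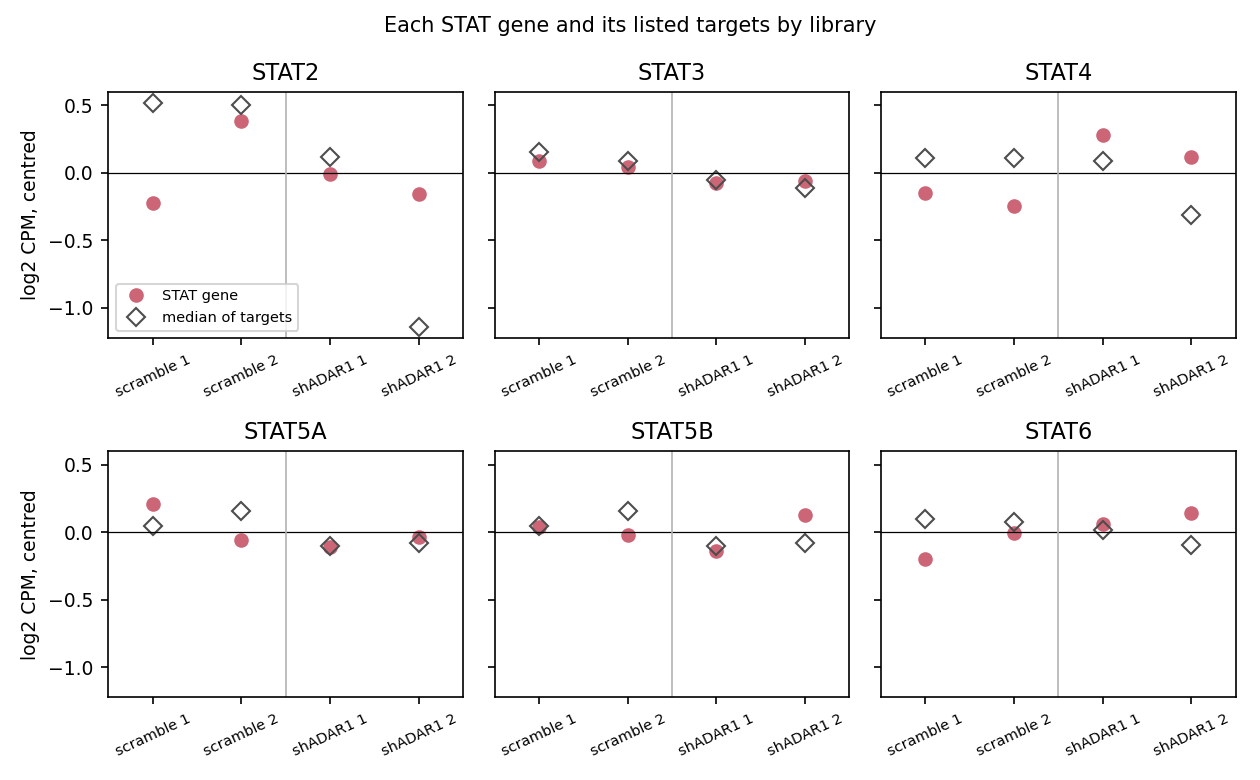
Centred log2 CPM (vertical axis, 0 is the mean over the 4 libraries) of each STAT gene, as red points, and the median over its listed targets, as open diamonds, in each library. The targets of STAT2 are lowest in NK shADAR1 replicate 2, at -1.14, where STAT2 itself is at -0.15.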

How the data were processed

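The deposited table gave, per gene and library, an estimated count and an FPKM (fragments scaled to transcript length and depth), both made by the authors from oligo(dT)-selected, NEBNext Ultra libraries run on an Illumina NovaSeq instrument. The submitters' processing notes name fastp 0.18.0, and the aligner, counter, build and annotation are not given in the sources used here. The deposited estimated counts, not whole for some genes, were rounded. Groups came from the sample titles, 2 libraries each. Symbols were matched for 20301 of the 20323 Ensembl identifiers. Genes were filtered with filterByExpr (minimum count 10), scaled by TMM and fitted without covariates by edgeR 4.0.16's quasi-likelihood test in R 4.3.3, with Benjamini-Hochberg adjustment over 11810 genes. An SE is the fold change divided by the root of F. A call needed an adjusted p below 0.05 and a 1.5-fold or larger change. The deposited FPKM served for levels and, as log2(FPKM + 0.1), for limma 3.58.1. The study describes replicates as independent, but no label ties them to cultures. The SEs and p-values of edgeR measure the spread between these libraries, moderated by a spread estimated over all tested genes. With 2 libraries per group, they do not rest on each gene's own replicates alone. Coding sequences (GENCODE 29) were aligned with Biopython 1.88.

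The 6 members and all lists were chosen with earlier results of these data known. Named genes were ADAR, the members, the Janus kinases, IRF9, up to 5 genes per other list with unadjusted p under 0.05 and at least 1.5-fold change, the most abundant gene of each list and the 3 nearest patterns of 2 members. IL15RA, ISG15 and the marker genes TRAC, CD3D, CD3G, CD4 and CD8A were named after their values were seen. The motif search, the transcript length check and the sequences shown were also chosen after values were seen. One related item is not reported here and was left out of the nearest-pattern search. The fit was repeated with DESeq2 1.42.0, with upper quartile or RLE scaling, filters of at least 1 count and of a mean of 50 counts, limma on FPKM, a replicate block and leaving out each library.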

Additional observations from a re-analysis of the deposited data

How the results depend on the processing

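Recomputing the fold changes of the 6 STAT genes and of the STAT5 sum under other settings gave 73 values, many from the same fit. Of these values, 66 kept direction and side of the threshold and 7 turned direction. None passed the threshold (lowest adjusted p 0.782, STAT4 in edgeR with a replicate block). STAT5B turned to 0.0058 under upper quartile scaling and to 0.0024 with a mean of at least 50 counts. Leaving out one library at a time gave -0.46 to 0.14 for STAT2, turning without NK scramble replicate 2, and -0.15 to 0.12 for STAT5B and -0.17 to 0.0071 for the STAT5 sum, both turning without replicate 1 of either group. STAT5A ran from -0.29 (without NK scramble replicate 2) to -0.02 (without NK scramble replicate 1), and STAT6 from 0.10 (without NK scramble replicate 1) to 0.29 (without NK scramble replicate 2). STAT4 stayed at a log2 fold change between 0.31 and 0.47 in all 11 fits. In fits without one library the lone library of a group is assumed to vary like the other group. The cause of these changes was not tested. The replicate numbers are shared between groups, but nothing in the labels pairs the libraries and there are 2 pairs, whose deviations correlated at 0.308 over 11810 genes. With the replicate block 13 genes were called, against 0, and STAT4 had a log2 fold change of 0.39 with an unadjusted p of 0.0346. Leaving out one library called 1 to 47 genes, and an unadjusted p called 213. DESeq2, RLE and upper quartile scaling and both other filters called 0. The number of STAT genes whose groups did not overlap was 3, and 2 in FPKM (chosen after seeing the data). Leaving out one library moved the list medians: receptors -0.0806 to -0.00695, Janus kinases -0.147 to 0.201, partners -0.0791 (without NK shADAR1 replicate 1) to 0.0735, inhibitors -0.0373 to 0.0733, and targets of STAT2 -1.68 to -0.438, of STAT3 -0.184 to -0.0785, of STAT4 -0.423 to -0.0897, of STAT5 -0.280 to -0.192 and of STAT6 -0.337 to -0.0936. With 2 libraries a group and a median SE of 0.226, changes of the size seen for most STAT genes were not detectable.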
